A study of Bos taurus with 4 samples.

Results

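The genes of DNA damage signalling and repair were followed in bovine blastocysts as a set of 57 genes chosen by symbol and arranged in 9 pathways. The array carried 72 probes for 52 of them, and WRN, BRCA2, PARP2, MSH3 and ERCC6 had no probe under their symbols. Another 10 genes had probes that were not above the detection limit in at least 3 of the 4 samples of either age. The remaining 42 genes were tested among 8398 genes in all, each through its brightest detected probe. Of the 42, 33 were above background in all 8 samples.

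The embryos came from oocytes of Holstein heifers collected by ovum pick-up after FSH stimulation, once at 8 months and once at 14 months of age. They were fertilized in vitro with semen of the same bull and collected as early blastocysts at 168 h after fertilization. RNA of pooled embryos was amplified and hybridised to a 2-colour array, on which the 8-month and the 14-month embryos of 1 heifer competed, so that each of 4 heifers gave 1 array (n = 4). The 8-month embryos were labelled with Cy5 in heifers 1 and 2 and with Cy3 in heifers 3 and 4. The labels give no treatment or genotype by which the ages differ. The collection at 14 months always came later, so age and collection order cannot be told apart.

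DNA breaks and stalled replication forks activate the kinases ATM and ATR, which signal through CHEK2 and CHEK1 to hold the cell cycle. Double-strand breaks are either rejoined directly or resected to single strands and repaired by homologous recombination, while damaged bases, bulky adducts, mispairs and crosslinks have excision pathways or the Fanconi anaemia proteins of their own. The cleavage-stage embryo divides fast and relies at first on repair proteins and mRNAs stored by the oocyte.

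All values below are log2 ratios of 8 over 14 months, and positive values are higher in the 8-month embryos. Each fitted ratio is given with its standard error from limma over 4 heifers. That error was moderated, so it draws on the variance of all genes tested as well as on the heifers. Without moderation it was 0.012 for RBBP8 and 0.18 for APEX1, against 0.10 and 0.13 with it. The model has a dye term, which absorbs any difference between the pair of heifers 1 and 2 and the pair 3 and 4, so the standard error can be smaller than the spread over the heifers. In RNA of whole embryos, fewer cells of a type and less RNA per cell cannot be told apart. A gene passed where its limma p-value, adjusted by Benjamini-Hochberg over all genes, was under 0.05.

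The labelled tissue was checked against marker genes. All 6 trophectoderm markers and all 4 inner cell mass markers were detected, KRT8, KRT18, GATA3, POU5F1 and NANOG in all 8 samples. Among markers of other sources, 3 of 8 oocyte genes, 4 of 8 cumulus and granulosa genes and 3 of 4 blood genes were detected, while the defining oocyte genes GDF9, BMP15, ZP2 and ZP4 were not among them. The summed intensity of the detected oocyte markers was 649 to 750 in the 8-month samples and 644 to 668 in the 14-month samples. For cumulus and granulosa markers it was 6611 to 14090 at 8 months and 6417 to 9378 at 14 months, and for blood markers 1369 to 2867 at 8 months and 1139 to 2428 at 14 months. SERPINE2 made up most of the cumulus and granulosa sum, with a mean log2 intensity of 12.87 against 7.63 to 8.72 for the others. The fitted ratio of SERPINE2 was 0.25, whereas HSD3B1, CYP19A1 and STAR had -0.70, -0.18 and -0.10. None of these markers of other sources passed. Of the markers of the embryo itself, the trophectoderm transcription factor GATA2 passed, higher at 8 months in all 4 heifers (0.61 ± 0.10, SE, n = 4, limma, adjusted p = 0.0313), and the other 5 trophectoderm markers and the 4 inner cell mass markers did not. The part of any marker in the results below was not tested. Between 36.6% and 44.7% of all probes were above background in the 8-month samples, and between 26.9% and 51.1% in the 14-month samples. These shares followed the dye, with Cy3 the larger in every array. Cy3 had 51.1%, 47.3%, 44.7% and 43.3% in heifers 1 to 4, and Cy5 had 36.6%, 37.3%, 41.0% and 26.9%.

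Of the repair genes RBBP8 alone passed, and it was lower in the 8-month embryos. RBBP8, also known as CtIP, works with the MRE11 complex to start the resection of broken DNA ends. Its normalized log2 intensity was 10.55, 11.30, 11.12 and 11.53 in the 8-month embryos of heifers 1 to 4, against 11.28, 12.05, 11.49 and 11.85 in the 14-month embryos of the same heifers. Every heifer was lower at 8 months, although the levels of the 2 ages overlapped across animals, since heifer 4 at 8 months lay above heifers 1 and 3 at 14 months. The ratios were -0.73, -0.75, -0.37 and -0.33 in heifers 1 to 4, which the fit gave as -0.55 ± 0.10 (SE, n = 4, 95% interval -0.76 to -0.33, adjusted p = 0.0351), or 1.46-fold lower at 8 months. Adjusted by limma over all 17685 probes tested, of which 1.88% passed, the adjusted p of its only probe, EMBV3_18594, was 0.0449. Its mean was -0.74 within heifers 1 and 2 and -0.35 within heifers 3 and 4. An exact two-sided sign-flip test of the 4 ratios gave p = 0.125, the smallest value 4 heifers allow. The authors' deposited table gave RBBP8 ratios of -0.68, -0.70, -0.40 and -0.34. Without heifer 1, 2 or 3 the fitted ratio was -0.55, -0.54 and -0.53 and the adjusted p was 0.227, 0.125 and 0.0765, so RBBP8 did not pass with any of these 3 heifers left out. Without heifer 4 it did pass, at -0.56 with an adjusted p of 0.0459.

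Across the whole set, 1 of 42 genes passed, 0 higher and 1 lower at 8 months. Of all genes tested, 4.50% passed, 1.70% higher and 2.80% lower, so the count among repair genes was no larger than that of genes in general. At an unadjusted p under 0.05 there were 4 repair genes, DDB1 and FANCD2 above 0 and RBBP8 and APEX1 below 0, where 27.3% of all genes reached that level. The ratio was above 0 in 19 repair genes and below 0 in 23, and 49.3% of all genes had a ratio above 0. The median ratio of the 42 genes was -0.02, against -0.004 over all genes, which loess holds near 0. The median size of the ratio, regardless of sign, was 0.144 in repair genes and 0.156 in all genes. The fitted ratios ran from -0.55 for RBBP8 to 0.45 for DDB1. The 95% interval lay within 0.5 of 0 in either direction for 36 of the 42 genes and for 5820 of all 8398 genes tested. Its half-widths were 0.22 to 0.35 in the 42 genes. With arrays centred on their medians in place of loess, 8 of the 42 genes passed, all 8 lower at 8 months, against 24.7% of all genes, 39 higher and 2039 lower. The 8 were APEX1, ATR, EXO1, MRE11, MSH6, RAD52, RBBP8 and XRCC6. Median centring put the median ratio at -0.20 for the repair genes and at -0.18 for all genes. The repair genes other than RBBP8 are described below by their values, and none of them passed as normalized by loess.

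**Figure D1:**
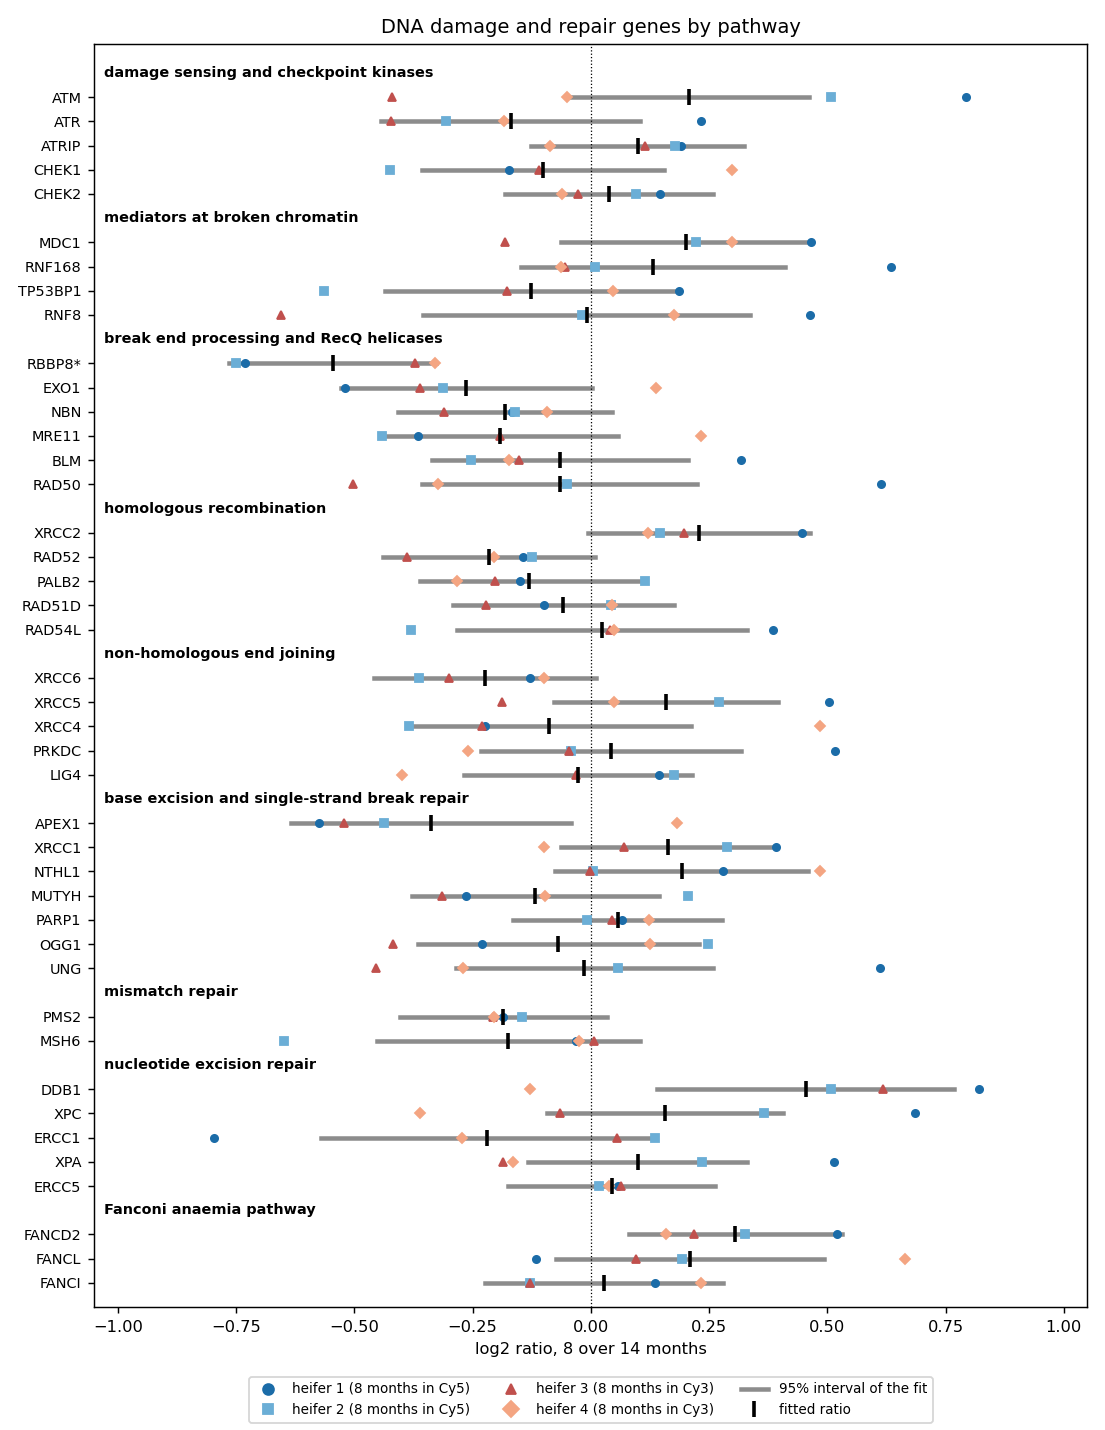
Log2 ratio of 8 over 14 months (x axis) for the 42 tested repair genes, grouped by pathway (y axis). Coloured symbols are the 4 heifers, black ticks the fitted ratio and grey bars its 95% interval, and an asterisk marks an adjusted p under 0.05. RBBP8 is the only marked gene, with all 4 heifers between -0.75 and -0.33.

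The sensing and checkpoint kinases did not move together. ATM, the kinase activated by double-strand breaks, had ratios of 0.79 and 0.51 in heifers 1 and 2 but -0.42 and -0.05 in heifers 3 and 4. Its fitted ratio was 0.21 ± 0.11 (SE, n = 4, adjusted p = 0.259), and its sign changed with the dye orientation. ATR, which responds to single-stranded DNA at stalled forks, had 0.23, -0.31, -0.42 and -0.18 in heifers 1 to 4. Its partner ATRIP, which brings ATR to that DNA, had a fitted ratio of 0.10, with heifers from -0.09 to 0.19. CHEK1, the kinase that acts after ATR, had -0.17, -0.42, -0.11 and 0.30. CHEK2, the kinase that acts after ATM, lay between -0.06 and 0.15 in every heifer. The mean log2 intensities of CHEK2 and ATRIP were low, at 7.99 and 7.57, so the size of their ratios is uncertain. Those of ATM, ATR and CHEK1 were 10.29, 10.39 and 10.72.

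The mediators that assemble on broken chromatin also spread to both sides of 0. MDC1, which reads the phosphorylated histone mark next to a break, had ratios of 0.47, 0.22, -0.18 and 0.30 in heifers 1 to 4, with a fitted value of 0.20 ± 0.12 (SE, n = 4, adjusted p = 0.289). The ubiquitin ligase RNF168, which marks histones so that TP53BP1 can bind, had 0.63 in heifer 1 and -0.06 to 0.01 in the others. TP53BP1, which restrains resection of the ends, had 0.19, -0.56, -0.18 and 0.05. RNF8, the ligase that acts before RNF168, had 2 detected probes that disagreed. The brighter one gave 0.46, -0.02, -0.66 and 0.18 in heifers 1 to 4, with a fitted ratio of -0.01. The other gave 0.14, -0.24, 0.88 and 0.15, with a fitted ratio of 0.23. It cleared the detection limit in 4 of the 8-month and 2 of the 14-month samples, and so was tested only through its 8-month samples.

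In break end processing, every tested gene of the set had a fitted ratio below 0, as had both tested genes of mismatch repair. Break end processing had 6 such genes, from -0.55 for RBBP8 to -0.06 for BLM, with a median of -0.19, and RBBP8 alone passed. Of all genes, 49.3% had a ratio above 0. Outside the set, RMI2 and RECQL5 of break end processing had fitted ratios above 0 (0.21 and 0.12), and TOP3A and DNA2 below 0 (-0.24 and -0.20). Resection is carried on by the exonuclease EXO1, whose ratios were -0.52, -0.31, -0.36 and 0.14 in heifers 1 to 4, with a fitted value of -0.26. The MRE11 complex, which RBBP8 stimulates, consists of MRE11, RAD50 and NBN. NBN had ratios of -0.17, -0.16, -0.31 and -0.09, below 0 in all 4 heifers, with a fitted value of -0.18. The nuclease MRE11 itself had -0.37, -0.44, -0.19 and 0.23. RAD50, the ATPase of the complex, had 0.61 in heifer 1 and -0.05, -0.50 and -0.32 in heifers 2 to 4. The RecQ helicase BLM, which can unwind DNA ahead of resection, had 0.32 in heifer 1 and -0.25 to -0.15 in the others. The fitted values below 0 thus came with at least 1 heifer above 0 in EXO1, MRE11, RAD50 and BLM.

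**Figure D2:**
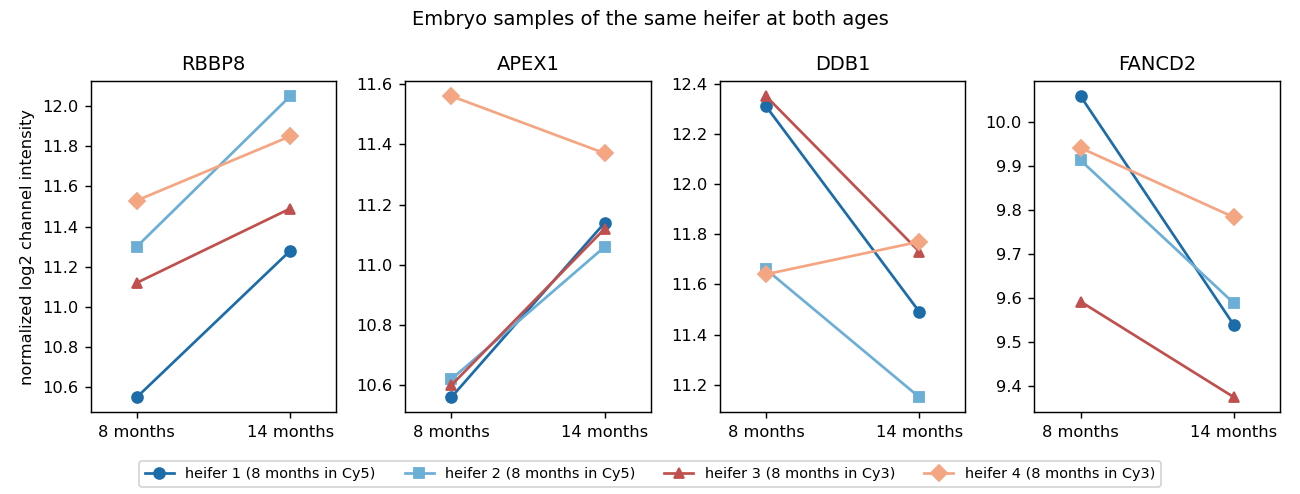
Normalized log2 channel intensity (y axis, its own range in each panel) of RBBP8, APEX1, DDB1 and FANCD2 in the 8-month and the 14-month embryos (x axis), with a line for each of the 4 heifers. All 4 lines of RBBP8 run upward to 14 months and all 4 of FANCD2 downward, while heifer 4 runs against the other heifers in APEX1 and DDB1.

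In homologous recombination, 5 of the 10 genes could be tested. XRCC2, which takes part in strand exchange, had ratios of 0.45, 0.15, 0.20 and 0.12 in heifers 1 to 4 and a fitted value of 0.23 ± 0.10 (SE, n = 4, adjusted p = 0.194). A second XRCC2 probe, above background in all 8 samples, gave -0.27, 0.25, 0.01 and -0.64 with a fitted value of -0.16, so the direction of XRCC2 was not settled. RAD52, which anneals single strands, was below 0 in all heifers, at -0.14, -0.12, -0.39 and -0.21. PALB2, the bridge between BRCA1 and BRCA2, had -0.15, 0.11, -0.20 and -0.28. RAD51D, which forms a complex with XRCC2, lay between -0.22 and 0.04. RAD54L, a translocase that helps strand invasion, had 0.39 and -0.38 in heifers 1 and 2 and 0.04 and 0.05 in heifers 3 and 4. BRCA1, its ring partner BARD1 and RAD51C were above background in 0 of 8 samples, and XRCC3 in 2 of 8, so no age difference was detectable for them on this array.

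Non-homologous end joining begins with the Ku heterodimer of XRCC5 and XRCC6, whose fitted ratios pointed apart. XRCC6 was below 0 in every heifer, at -0.13, -0.36, -0.30 and -0.10, with a fitted value of -0.22 ± 0.10 (SE, n = 4, adjusted p = 0.202). It passed with median centring at -0.43 (limma, adjusted p = 0.0324), where 24.7% of all genes passed, 39 higher and 2039 lower. XRCC5 had 0.50, 0.27, -0.19 and 0.05 and a fitted value of 0.16. PRKDC, the kinase that Ku recruits, had 0.52 in heifer 1 and -0.26 to -0.04 in the others. The ligase LIG4 had 0.14, 0.18, -0.03 and -0.40 at its brighter probe. A second LIG4 probe cleared the detection limit in 0 of the 4 samples at 8 months and in 3 of those at 14 months. Its ratios were -0.38, -0.38, -0.27 and -0.09, with an adjusted p of 0.1265 by limma over all probes. XRCC4, the partner of LIG4, had the same pattern of detection. Both probes were thus tested only through their 14-month samples. Their ratios below 0 carry that selection, and the size of the ratios is uncertain. The limit was set for each channel of each array, so the detection counts do not compare levels between the ages. Unnormalized, the second LIG4 probe read 209 to 298 at 8 months and 109 to 213 at 14 months. The mean log2 intensity of XRCC4 was 7.43 at 8 months and 7.51 at 14 months. Its ratios were -0.22, -0.38, -0.23 and 0.49 in heifers 1 to 4, and it did not pass (limma, adjusted p = 0.696).

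In base excision and single-strand break repair, APEX1 had the lowest ratio of 7 tested genes. APEX1 is the endonuclease that cuts the DNA strand at sites left by removed bases. Its log2 intensities were 10.56, 10.62, 10.60 and 11.56 in the 8-month embryos of heifers 1 to 4, against 11.14, 11.06, 11.12 and 11.37 in the 14-month embryos. Heifers 1 to 3 were lower at 8 months by nearly the same amount, with ratios of -0.57, -0.44 and -0.52, and heifer 4 had 0.18. The fitted ratio was -0.34 ± 0.13 (SE, n = 4, 95% interval -0.63 to -0.04, adjusted p = 0.143) and did not pass. With median centring it was -0.65 and passed (limma, adjusted p = 0.0077), where 24.7% of all genes passed, 39 higher and 2039 lower.

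The glycosylases that remove damaged bases lay on both sides of 0, and none passed. UNG, which removes uracil, had 0.61 and 0.06 in heifers 1 and 2 and -0.45 and -0.27 in heifers 3 and 4. OGG1, which removes oxidized guanine, had -0.23, 0.25, -0.42 and 0.13. MUTYH, which removes adenine paired with oxidized guanine, had -0.26, 0.21, -0.32 and -0.10. NTHL1, which acts on oxidized pyrimidines, had 0.28, 0.004, -0.002 and 0.48. Its second detected probe was above 0 in all heifers, from 0.22 to 0.43, with a fitted value of 0.35. The adjusted p of that probe was 0.0841 by limma over all probes. It cleared the detection limit in 3 of the 8-month and 2 of the 14-month samples. That probe was thus tested only through its 8-month samples, and the size of its ratio is uncertain. PARP1, the sensor of strand breaks, stayed within -0.01 and 0.12 in the 4 heifers, with log2 intensities of 13.29 to 13.81 at 8 months and 13.22 to 13.69 at 14 months. Its fitted ratio was 0.06 with a 95% interval of -0.16 to 0.28. The scaffold XRCC1 had 0.39, 0.29, 0.07 and -0.10, and its partner, the ligase LIG3, was above background in 1 of 8 samples.

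Of the mismatch repair genes, PMS2 and MSH6 were tested. PMS2, which nicks the mispaired strand, had ratios of -0.18, -0.15, -0.21 and -0.20 in heifers 1 to 4, nearly the same in each animal. Its fitted value was -0.19 ± 0.10 (SE, n = 4, adjusted p = 0.242). One sample of each age fell below the detection limit for PMS2, so the size of its ratio is uncertain. MSH6, a subunit of the mismatch sensor, had -0.65 in heifer 2 and -0.03 to 0.01 in the others.

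In nucleotide excision repair, DDB1 had the highest ratio of all 42 repair genes. DDB1 is the adaptor of CUL4 ubiquitin ligases and, with DDB2, recognizes ultraviolet lesions. Its log2 intensities were 12.31, 11.66, 12.35 and 11.64 in the 8-month embryos of heifers 1 to 4, against 11.49, 11.15, 11.73 and 11.77 in the 14-month embryos. The ratios were 0.82, 0.51 and 0.62 in heifers 1 to 3 and -0.13 in heifer 4, and the fit gave 0.45 ± 0.14 (SE, n = 4, 95% interval 0.14 to 0.77, adjusted p = 0.0864). Without heifer 4 the fitted ratio was 0.64 with an adjusted p of 0.0362, the only fit run in which DDB1 passed. With median centring the ratio of DDB1 was 0.12, where the median of all genes was -0.18. XPC, the lesion sensor of the genome at large, had 0.69, 0.37, -0.07 and -0.36, and XPA, which checks the lesion, had 0.51, 0.23, -0.19 and -0.17. Both changed sign with the dye orientation. The nuclease subunit ERCC1 had -0.80, 0.14, 0.06 and -0.27, and ERCC5, the nuclease that cuts on the other side, lay between 0.02 and 0.06. ERCC1 cleared the detection limit in 3 of the 4 samples of each age, so the size of its ratio is uncertain. ERCC2, ERCC4 and DDB2 were above background in 0 of 8 samples and ERCC3 in 3 of 8.

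The Fanconi anaemia pathway had 3 tested genes in the set, all with fitted ratios above 0. However, FANCL and FANCI had -0.08 and -0.32 when arrays were centred on their medians in place of loess. The median of all genes was -0.18 in that setting. Genes of the pathway outside the set lay on both sides of 0. FAN1 and USP1 had fitted ratios above 0, and WDR48, UBE2T, FANCG, FANCE, FANCM, FAAP24 and FANCF had fitted ratios below 0. FANCD2, which is ubiquitinated together with FANCI at DNA crosslinks, had log2 intensities of 10.06, 9.91, 9.59 and 9.94 in the 8-month embryos of heifers 1 to 4, against 9.54, 9.59, 9.37 and 9.78 in the 14-month embryos. It was higher at 8 months in each heifer, with ratios of 0.52, 0.33, 0.22 and 0.16, although the levels of the 2 ages overlapped across animals. The fitted ratio of FANCD2 was 0.31 ± 0.10 (SE, n = 4, 95% interval 0.08 to 0.53, adjusted p = 0.1001) and did not pass, and with median centring it was 0.05. FANCL, the ubiquitin ligase that modifies both proteins, had -0.12, 0.19, 0.10 and 0.66. FANCI, the partner of FANCD2, lay between -0.13 and 0.23. FANCA, of the core complex that holds FANCL, was above background in 0 of 8 samples.

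The ratios of the repair genes were also set out by dye orientation. In heifers 1 and 2, with the 8-month embryos in Cy5, 25 and 22 of the 42 genes had a ratio above 0, and in heifers 3 and 4, with the 8-month embryos in Cy3, 11 and 19 did. The median ratios of the 42 genes were 0.14, 0.01, -0.18 and -0.06 in heifers 1 to 4, whereas those of all genes lay between -0.01 and -0.001. The dye term is positive where the mean ratio of heifers 1 and 2 exceeded that of heifers 3 and 4. It was above 0 in 61.9% of the repair genes and in 50.01% of all genes. Loess within arrays holds the all-gene medians near 0, and with them this all-gene share near an even split. The sign reversed between the orientations, with both heifers of each pair alike, in 7 repair genes, ATM, CHEK2, RNF168, LIG4, UNG, XPC and XPA. The same occurred in 18.3% of all genes. The largest dye terms among the repair genes were those of ATM (0.44), XPC (0.37), UNG (0.35), RAD50 (0.35) and XPA (0.27), with adjusted p-values of 0.1103 to 0.2019 from limma. These 5 had an unadjusted p under 0.05 for the dye term, as had 19.0% of all genes. The same sign in all 4 heifers was seen in 8 repair genes, where 27.6% of all genes had it. XRCC2, ERCC5 and FANCD2 were positive in every heifer, and RBBP8, NBN, RAD52, XRCC6 and PMS2 were negative. Those 3 and 5 genes compare with 12.3% and 15.2% of all genes. The ratio of ERCC5 was at most 0.06, and its signal cleared the detection limit in 2 of the 8-month and 3 of the 14-month samples.

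**Figure D3:**
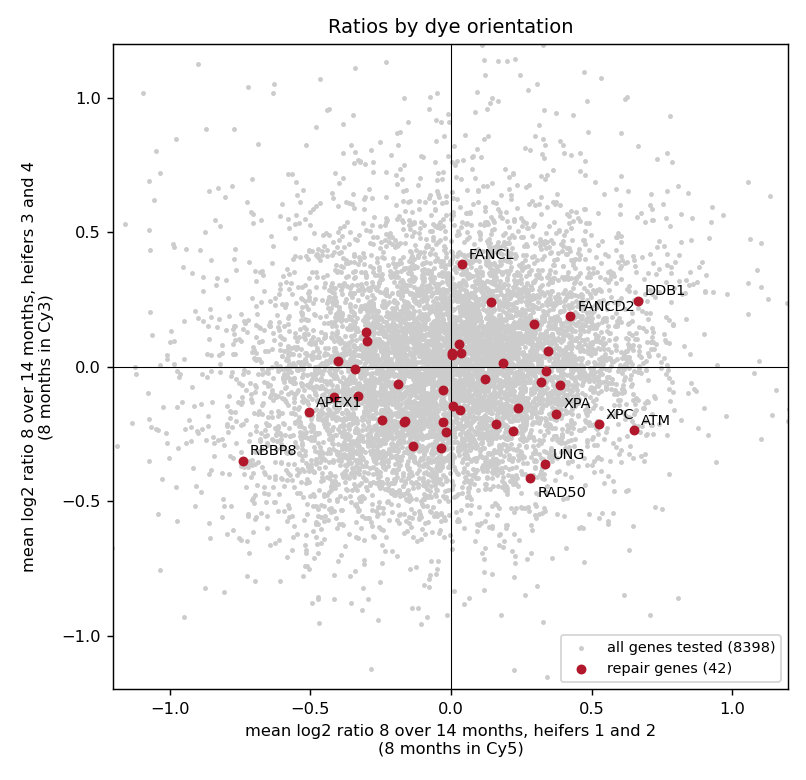
Mean log2 ratio of 8 over 14 months in heifers 1 and 2 (x axis) against that in heifers 3 and 4 (y axis), for all 8398 genes tested (grey) and the 42 repair genes (red); 27 other genes lie outside the axes. RBBP8 lies at lower left, below 0 in both pairs, DDB1 and FANCD2 at upper right, and ATM, XPC, XPA, UNG and RAD50 at lower right, above 0 in heifers 1 and 2 and below 0 in heifers 3 and 4.

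The pathways hold further genes, of which 109 were listed and 84 could be tested. Of these, 3 passed, FAN1 higher at 8 months and CUL4A and RPA1 lower, where 4.50% of all genes passed. RPA1 is the large subunit of the protein that coats the single strands made by resection. It had ratios of -1.02, -0.38, -0.47 and -0.54 in heifers 1 to 4 and a fitted value of -0.60 ± 0.12 (SE, n = 4, adjusted p = 0.0387), with 1 sample of each age below the detection limit, so its size is uncertain. CUL4A, the cullin scaffold that DDB1 joins, had -0.70, -0.33, -0.99 and -0.50, with a fitted value of -0.63 ± 0.12 (SE, n = 4, adjusted p = 0.0379). Its ratio thus stood on the opposite side of 0 from that of DDB1. FAN1, a nuclease that ubiquitinated FANCD2 can recruit to crosslinks, had 0.80, 0.68, 0.09 and 0.85, with a fitted value of 0.61 ± 0.13 (SE, n = 4, adjusted p = 0.0465). The adjusted p of RPA1 was 0.0646 to 0.240 and that of FAN1 0.0572 to 0.245 with any 1 heifer left out. That of CUL4A was 0.101 to 0.240 without heifer 1, 2 or 3 and 0.0297 without heifer 4, so only CUL4A passed in any of these fits. With median centring FAN1 had 0.37 and did not pass (limma, adjusted p = 0.0990). The median of all genes was -0.18 in that setting.

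The transcriptional side of damage signalling was read from 15 genes listed as p53 responsive, of which 11 were tested. None passed by limma, and 0 of 11 reached an unadjusted p under 0.05. CDKN1A, the cell cycle inhibitor, had a fitted ratio of 0.12 ± 0.11, and MDM2, the ligase that degrades p53, had 0.13 ± 0.10 (SE, n = 4 each). The fitted ratios of the 11 genes ran from -0.10 for FAS to 0.23 for CCNG1, and 9 of them were above 0, where 49.3% of all genes were. Only MDM2 had the same sign in all 4 heifers, where 27.6% of all genes had it. The sign reversed with the dye orientation in 3, CCNG1, BAX and BTG2, where it did in 18.3% of all genes.

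**Figure D4:**
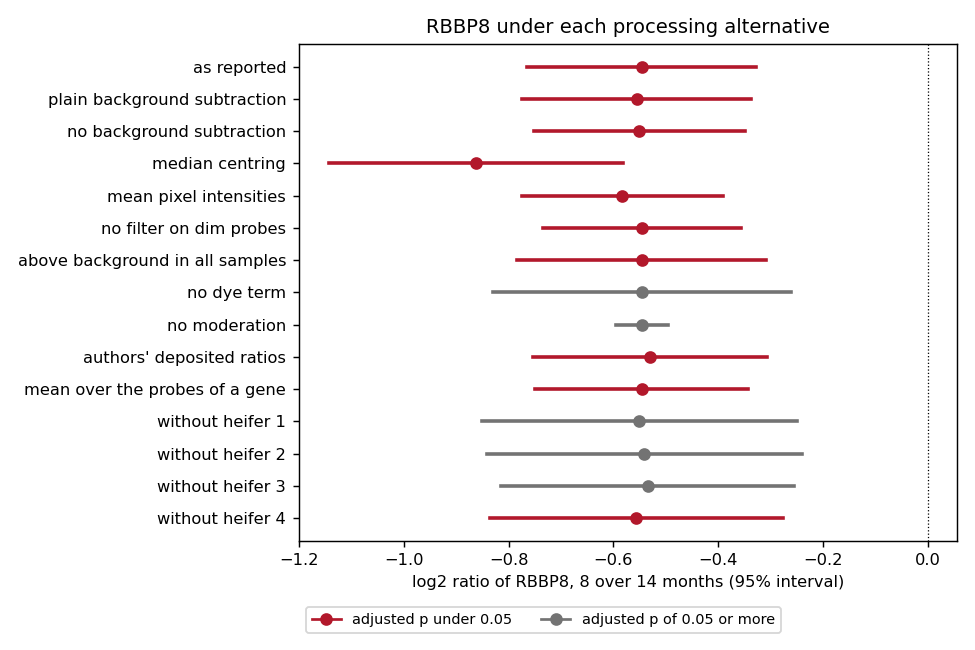
Fitted log2 ratio of RBBP8 for 8 over 14 months with its 95% interval (x axis), as reported and under 14 alternatives of the processing or the arrays used (y axis). Red marks an adjusted p under 0.05 and grey an adjusted p of 0.05 or more. All values lie below 0, from -0.86 with median centring to -0.53 with the authors' deposited ratios.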

How the data were processed

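The deposited scanner tables give, per the file headers, unnormalized intensity values of every spot and of its surroundings for Cy3 and Cy5. The authors deposited normalized log2 ratios in 2 further tables. Set against the scanner ratios, one reads Cy5 over Cy3 (r = 0.961 to 0.997, slopes 0.976 to 1.02, medians 0.0036, 0.0003, 0.0014 and -0.0094 in heifers 1 to 4). The other has heifers 3 and 4 turned and so reads 8 over 14 months (medians 0.0036, 0.0003, -0.0014 and 0.0094). Their log base was taken as 2 from these slopes. Their background correction, normalization and centring stay unknown here, and they served as an alternative.

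Median intensities were corrected with normexp (offset 50) and normalized by loess within arrays, with 1426 control or unnamed spots at weight 0 (limma 3.58.1, R 4.3.3). A sample was above background where its intensity exceeded the mean of 153 negative control spots by 2 SD, and probes above it in at least 3 of 4 samples of an age were tested. Platform symbols were updated through RefSeq synonyms (ARS-UCD2.0, names only). This placed 2 probes, of MRE11 and RAD51D. Ratios were fitted with lmFit and eBayes, with a dye term and 2 residual degrees of freedom. Moderation raised these to 8.408 for the tests and intervals over genes. Tests were two-sided. Channel intensities were scaled between arrays by Aquantile.

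Members and lists were chosen with earlier results of these data known. Full values were given to genes that passed, had an unadjusted p under 0.05, had the smallest p of a pathway, were brightest or had probes that disagreed. The precision is limited by the number of arrays, 4, which shared a slide. Alternatives were background, centring, pixel statistic, filter, dye term, moderation, the authors' ratios, probe choice and leaving out each heifer. Probe sequences and genome positions were not used here.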

Additional observations from a re-analysis of the deposited data

Results flagged for a closer look

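The 4 heifers' ratios were examined for a lone sample in 45 genes, the 42 repair genes and the 3 others named as passing, and 2 stood out by Dixon's criterion at the 95% level, which chance alone passes in about 1 in 20 such groups. The ratio of MSH6 was -0.65 in heifer 2, where the other heifers lay between -0.03 and 0.01. The ratio of RNF168 was 0.63 in heifer 1, where the others lay between -0.06 and 0.01.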

How the results depend on the processing

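RBBP8 stayed below 0 under all 14 alternatives (-0.86 to -0.53) and passed in 9 of them. It did not pass without the dye term (adjusted p = 0.113), without moderation (0.203) or without heifer 1, 2 or 3. Median centring in place of loess moved the median of all genes to -0.18 and that of the repair genes to -0.20. It gave 2078 genes (24.7%, 39 higher and 2039 lower), 3416 probes, 8 repair genes, all 8 lower, 21 other repair genes and 2 damage response genes. Relative to that shift the repair genes were close to all genes. Under it the ratio of ATM was -0.072, and within heifers 3 and 4 it was -0.24. With probes above background in all samples only, XRCC2 was represented by its other probe and had -0.16. Without the dye term or without moderation limma passed 0 genes, 0 probes, 0 repair genes (0 lower) and 0 other repair genes, with 1544 and 1263 genes and 4 and 4 repair genes at an unadjusted p under 0.05. FAN1 passed in 5 of its 14 alternatives, and not with median centring, no background subtraction (adjusted p = 0.0550) or averaged probes (0.0562). Averaging the probes of a gene gave 207 genes. No background subtraction gave 1 other repair gene and 0 probes, plain subtraction 0 probes (4506 and 4576 at an unadjusted p under 0.05), and no filter 1013 probes. Leaving out 1 heifer at a time gave 0 to 339 genes, 0 to 1180 probes, 0 to 2 repair genes (0 to 1 higher, 0 to 1 lower), 0 to 3 other repair genes, 0 to 0 damage response genes and a median repair ratio of -0.06 to 0.07. Without heifers 1 to 4 in turn there were 1351, 1754, 1719 and 2117 genes and 3, 5, 6 and 6 repair genes at an unadjusted p under 0.05. The causes were not tested. Dim probes limit what can be seen: 10 repair genes with probes had no usable signal. Each heifer is its own pair within an array, so no other blocking was fitted.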
